A study of Mus musculus with 4 samples.

Results

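Klk6-negative mature oligodendrocytes were examined in single-cell RNA sequencing of glia-enriched brain suspensions. Members were chosen by measured values, the UMI counts of 16 genes. A barcode was a member when at least 4 of 8 mature oligodendrocyte markers (Mog, Mag, Ermn, Ugt8a, Opalin, Gjb1, Cldn11 and Aspa) had a unique molecular identifier (UMI, a count of 1 captured RNA molecule), when Klk6 and Serpinb1a together had 0 UMIs, and when Aqp4, Gja1, C1qa, Ctss, Cldn5 and Flt1, genes of astrocytes, microglia and endothelium, summed to at most 3 UMIs. Of 60717 barcodes with at least 1000 UMIs, at least 500 genes and at most 20% mitochondrial UMIs, 4715 were members. There were 933 in ApoE4 LPS, 926 in ApoE4 NaCl, 1808 in ApoE3 LPS and 1048 in ApoE3 NaCl. All animals were male mice whose own Apoe gene was replaced by human APOE, as ApoE4 or as ApoE3. The LPS groups received 5 mg/kg bacterial lipopolysaccharide (LPS), an endotoxin of the outer bacterial membrane, into the peritoneal cavity 24 h before death, and the NaCl groups received NaCl. Each group was 1 library made from 3 mice, and no barcode is assigned to a mouse, so no difference could be tested. The intervals given are 95% intervals that cover counting error and not the variation between mice or between preparations.

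Oligodendrocytes wrap axons in myelin, a stack of lipid-rich membrane held together by proteins such as Mbp, and pass metabolic fuel to the axons beneath. Mature oligodendrocytes of the mouse brain are not uniform. One kind carries the protease Klk6 and the protease inhibitor Serpinb1a with S100b, Hopx and Anxa5, and the other mature cells are richer in Ptgds, the enzyme that makes prostaglandin D2. Oligodendrocytes carry the glucocorticoid receptor, and adrenal glucocorticoids are released in quantity during systemic inflammation.

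The label was checked on genes that the rule did not use. Cnp, an enzyme of the cytoplasmic channels of myelin, measured 1193 CPM in ApoE4 LPS, 2489 in ApoE4 NaCl, 1314 in ApoE3 LPS and 2029 in ApoE3 NaCl, where CPM, counts per 1000000, is scaled to the summed UMIs of the members of a library. In microglia-like barcodes of the same libraries it measured 62.4, 46.7, 29.2 and 39.4 CPM. The summed level of 8 precursor transcripts was 98.0 CPM in ApoE4 LPS, 109 in ApoE4 NaCl, 114 in ApoE3 LPS and 142 in ApoE3 NaCl. Against Klk6-positive mature oligodendrocytes of the same library, members had Ptgds at 1.85, 1.88, 1.82 and 1.75 times the level, Cd9 at 1.89, 1.75, 1.96 and 1.63 times and the zinc transporter Tmem163 at 1.98, 2.73, 2.73 and 2.10 times, in the order ApoE4 LPS, ApoE4 NaCl, ApoE3 LPS and ApoE3 NaCl. In the same order Hopx stood at 0.187, 0.0753, 0.19 and 0.128, S100b at 0.180, 0.130, 0.257 and 0.128, and the lipocalin Apod at 0.598, 0.460, 0.448 and 0.458 times the Klk6-positive level. These ratios describe cells the rule itself separated and carry no test.

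The rule took unequal shares of the mature oligodendrocytes. Members were 63.1% of them in ApoE4 LPS, 32.1% in ApoE4 NaCl, 68.6% in ApoE3 LPS and 39.0% in ApoE3 NaCl. Serpinb1a differed more between the libraries than Klk6. Over all mature oligodendrocytes it measured 68.6 CPM in ApoE4 LPS, 375 in ApoE4 NaCl, 65.4 in ApoE3 LPS and 292 in ApoE3 NaCl, while Klk6 was found in 21.0%, 17.2%, 12.9% and 13.0% of them. Of the barcodes left out, 235 of 546 in ApoE4 LPS, 1464 of 1960 in ApoE4 NaCl, 488 of 828 in ApoE3 LPS and 1290 of 1640 in ApoE3 NaCl had Serpinb1a and no Klk6. Just outside the limit, 230, 553, 387 and 599 barcodes had a single UMI of the pair. The members of the LPS and NaCl libraries may therefore differ in which cells the rule admitted as well as in what those cells express, and these cannot be told apart. The ratio or the level in the cells left out is therefore given beside some of the leading results, and not beside all of them. Of all barcodes that passed the quality limits, members were 5.13% (4.82 to 5.46), 7.08% (6.65 to 7.54), 12% (11.5 to 12.5) and 7.28% (6.86 to 7.71). With every barcode thinned at random to 1000 UMIs before the rule was applied, these shares were 3.67%, 14.0%, 7.56% and 12.3%, so their order changed with depth and they are not read as cell numbers.

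The marker limit also lay at a different place in the 4 libraries. In ApoE4 LPS 191 members had exactly 4 of the 8 markers and 157 barcodes just outside had 3, against 27 and 14 in ApoE4 NaCl, 119 and 56 in ApoE3 LPS and 27 and 10 in ApoE3 NaCl. Several of the markers themselves, which chose the cells and are given as a description, stood lower under LPS. Opalin, a glycoprotein of oligodendrocyte membranes, measured 201 CPM in ApoE4 LPS, 1245 in ApoE4 NaCl, 204 in ApoE3 LPS and 943 in ApoE3 NaCl. Ugt8a, which makes the myelin lipid galactocerebroside, measured 412, 939, 399 and 935 CPM, and Mog, on the outer face of myelin, 545, 1185, 572 and 950 CPM. Cldn11, the tight junction protein of myelin, was nearer to level at 1297, 1726, 1448 and 1578 CPM.

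The ApoE4 LPS library stood apart from the others. It held 29361 barcodes with a median of 1292 UMIs, and 61.9% passed the quality limits, against 14122 to 16078 barcodes, medians of 3969 to 5640.5 UMIs and 92.6 to 93.7% in the other libraries. Its members had a median of 4084 UMIs, against 4021 in ApoE4 NaCl, 5594 in ApoE3 LPS and 4003 in ApoE3 NaCl. The lower end was shallowest in ApoE4 LPS, where 197 of 933 members had under 2000 UMIs, against 154 of 926, 106 of 1808 and 151 of 1048. The members' UMIs came to 4449233, 4177819, 11023168 and 4603221. Their median mitochondrial share was 4.47%, 4.21%, 5.05% and 3.81%. Any pair of libraries shared 61 to 140 barcodes, and 13, 17, 22 and 20 members had a barcode found in more than 1 library. Oligodendrocyte RNA in barcodes of another type was highest in ApoE4 LPS. Apod in microglia-like barcodes stood at 478 CPM there, against 12.4, 87.3 and 10.1 CPM in ApoE4 NaCl, ApoE3 LPS and ApoE3 NaCl.

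RNA of other cell types reached the members too. Over all genes of each list, the summed level of 8 choroid plexus transcripts was 5964 CPM in ApoE4 LPS, 5163 in ApoE4 NaCl, 2295 in ApoE3 LPS and 10827 in ApoE3 NaCl, most of it Ttr. Red cell transcripts summed to 1911, 4015, 317 and 2583 CPM, microglial to 925, 784, 582 and 863 CPM, astrocyte to 720, 495, 563 and 650 CPM, neuronal to 103, 207, 83.3 and 155 CPM, endothelial to 79.6, 65.1, 46.1 and 88.6 CPM and neutrophil to 175, 4.07, 92.4 and 1.96 CPM. Ranked genes whose level in members was under 10% of that in another cell class are therefore kept apart below. Genes named from a list were not separated in this way.

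At 24 h after LPS the members of both genotypes carried more RNA of many listed stress and glucocorticoid-responsive genes and less RNA of several myelin genes. Of 8597 genes with a mean of at least 10 CPM over the 4 libraries, 875 (10.2%) were at least 1.5-fold higher and 893 (10.4%) at least 1.5-fold lower in ApoE4 LPS than in ApoE4 NaCl. In ApoE3 LPS against ApoE3 NaCl the numbers were 714 (8.31%) and 953 (11.1%). With median-of-ratios size factors in place of CPM they were 906 and 839 in ApoE4 and 825 and 773 in ApoE3, so which direction held more genes changed with the scaling. Of the genes higher in each, 522 were higher in both, which is 59.7% of the ApoE4 genes and 73.1% of the ApoE3 genes. Of the lower genes 530 were shared, 59.4% of the ApoE4 genes and 55.6% of the ApoE3 genes. The pairs of libraries are separate, so the genotypes share no control. Genes past 1.5-fold are called higher or lower below, and the leading genes were ranked by the bound of their interval nearest 1, 12 a direction.

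Cdkn1a, which encodes the cell cycle inhibitor p21 and responds to p53 and to glucocorticoids, ranked first among the higher genes in both genotypes. It measured 1675 CPM in ApoE4 LPS, 2.15 in ApoE4 NaCl, 1585 in ApoE3 LPS and 17.6 in ApoE3 NaCl. The LPS libraries stood far above the NaCl libraries in both genotypes, by 777-fold (95% interval 409 to 1701) in ApoE4 and 90.1-fold (95% interval 72.4 to 114) in ApoE3. The ApoE4 NaCl level rests on 9 UMIs, so the size of that ratio is loosely known. In Klk6-positive oligodendrocytes the ratios were 100.2 in ApoE4 and 92.1 in ApoE3, and in astrocyte-like barcodes 17.8 and 10.4. With every barcode thinned to 1000 UMIs, a UMI of Cdkn1a was found in 63.7% of members in ApoE4 LPS, 0.540% in ApoE4 NaCl, 68.5% in ApoE3 LPS and 1.43% in ApoE3 NaCl. In microglia-like barcodes of the same libraries the share was 18.2%, 1.90%, 6.85% and 2.46%. Most members of the LPS libraries had Cdkn1a RNA, and few members of the NaCl libraries did.

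**Figure D1:**
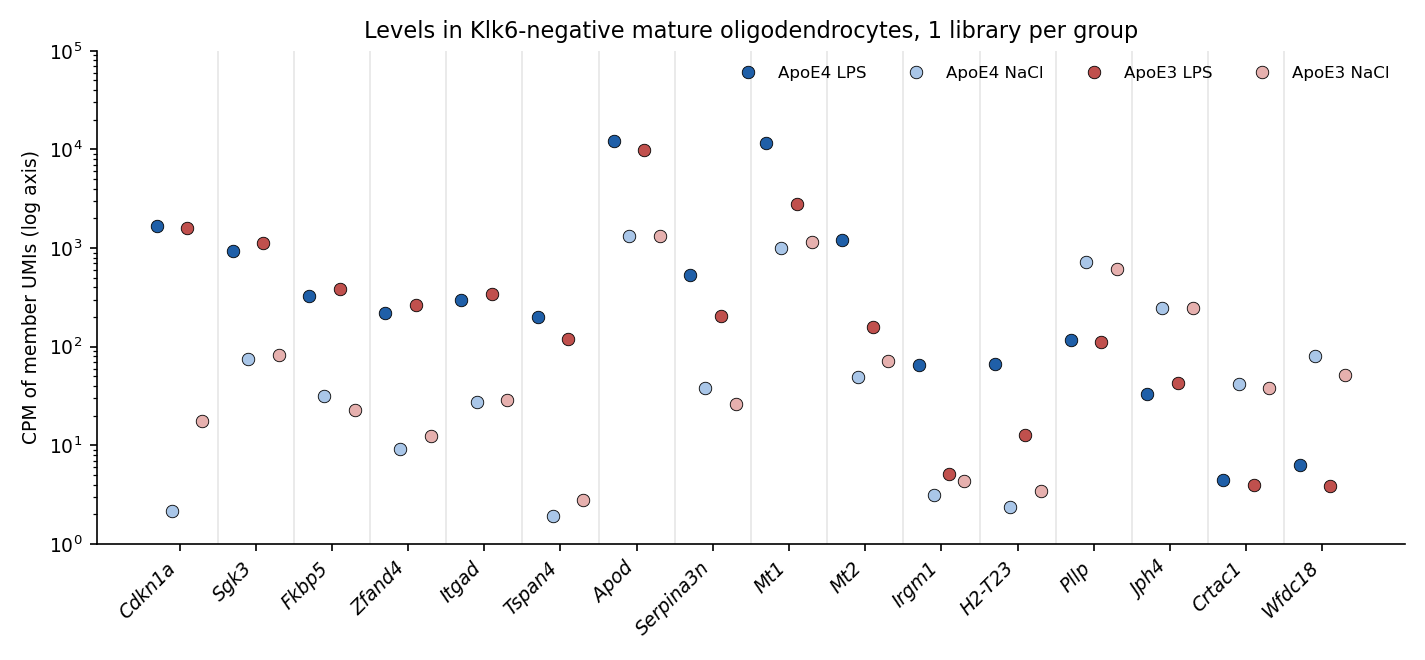
Level of 16 genes in members of each library, as CPM of the members' UMIs on a log axis; each point is 1 library, with ApoE4 left of ApoE3 and LPS left of NaCl within a genotype. Cdkn1a, Sgk3, Fkbp5 and Apod are higher and Pllp, Jph4, Crtac1 and Wfdc18 lower in both LPS libraries, while Mt1, Mt2, Irgm1 and H2-T23 are highest in ApoE4 LPS.

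Other genes far higher under LPS were shared between the genotypes, though not all ranked among the 12 in both. Sgk3, a kinase related to the glucocorticoid-induced Sgk1, measured 931 CPM in ApoE4 LPS, 74.4 in ApoE4 NaCl, 1138 in ApoE3 LPS and 83.2 in ApoE3 NaCl, which is 12.5-fold (95% interval 11.1 to 14.1) and 13.7-fold (95% interval 12.4 to 15.2) higher under LPS. Its ratios were 1.14 and 1.06 in astrocyte-like, 0.907 and 1.08 in microglia-like and 0.928 and 0.810 in endothelial-like barcodes of ApoE4 and ApoE3, and 10.0 and 10.5 in Klk6-positive oligodendrocytes. Tspan4, a tetraspanin of migrasomes, behaved alike in oligodendrocytes, with 200.0 CPM in ApoE4 LPS, 1.91 in ApoE4 NaCl, 119 in ApoE3 LPS and 2.82 in ApoE3 NaCl, and ratios of 0.933 and 0.797 in microglia-like barcodes of ApoE4 and ApoE3. Zfand4, a zinc finger protein, measured 220.3 CPM in ApoE4 LPS, 9.10 in ApoE4 NaCl, 264 in ApoE3 LPS and 12.4 in ApoE3 NaCl. Itgad, an integrin alpha chain better known from leukocytes, measured 299.8 CPM in ApoE4 LPS, 27.3 in ApoE4 NaCl, 339 in ApoE3 LPS and 28.7 in ApoE3 NaCl. It was at most 8.97 CPM in astrocyte-like, microglia-like and endothelial-like barcodes of any library. These genes stood above their NaCl library in both genotypes with intervals that did not reach 1.

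Phyhd1, a dioxygenase, was 21.3-fold (95% interval 14.3 to 33.1) higher in ApoE4 and 17.8-fold (95% interval 12.9 to 25.2) in ApoE3, and Itih5, a hyaluronan-binding matrix protein, 20.6-fold (95% interval 14.4 to 30.5) and 14.1-fold (95% interval 11.0 to 18.5). Sh2b2, an adaptor of insulin receptor signalling, measured 67.2 CPM in ApoE4 LPS against 5.27 in ApoE4 NaCl and 97.6 CPM in ApoE3 LPS against 2.82 in ApoE3 NaCl, so ApoE3 NaCl was the low library. Maff, a small Maf transcription factor, measured 30.6 CPM in ApoE4 LPS against 0.239 in ApoE4 NaCl (1 UMI) and 34.6 CPM in ApoE3 LPS against 0.652 in ApoE3 NaCl (3 UMIs). Galnt17, a glycosyltransferase, was among the 12 highest-ranked higher genes in ApoE3, at 13.4-fold. In ApoE4 the 12 highest-ranked higher genes included Mmp3, Mt2, H2-T23, Irgm1, Socs3 and Serpina3n, which are described with the genotypes below. They did not include Sgk3, Itgad or Fkbp5. Lcn2 and Saa3, acute-phase proteins, led the genes with a low share. Lcn2 had 154 CPM in ApoE4 LPS against 0.239 in ApoE4 NaCl and 82.9 CPM in ApoE3 LPS against 0 in ApoE3 NaCl, which was 1.16% of the neutrophil-like level in ApoE4 LPS and 0.683% of the fibroblast-like level in ApoE3 LPS, and whether members express it was not tested.

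Genes of the glucocorticoid response were mostly higher under LPS. Of 34 listed genes 27 were measured, and 21 in ApoE4 and 22 in ApoE3 were at least 1.5-fold higher under LPS and 0 lower, with median log2 ratios of 1.99 and 1.70 beside medians of -0.02 and -0.06 over all 8597 genes. Fkbp5, a chaperone that damps the glucocorticoid receptor and a standard readout of its activity, measured 327 CPM in ApoE4 LPS, 31.6 in ApoE4 NaCl, 388 in ApoE3 LPS and 22.8 in ApoE3 NaCl, or 10.3-fold (95% interval 8.64 to 12.4) and 17.0-fold (95% interval 14.0 to 20.9) higher under LPS. Sgk1, the serum- and glucocorticoid-regulated kinase, measured 2393 CPM in ApoE4 LPS, 703 in ApoE4 NaCl, 2426 in ApoE3 LPS and 789 in ApoE3 NaCl. Plin4, a lipid droplet coat protein, measured 209.7 CPM in ApoE4 LPS, 17.0 in ApoE4 NaCl, 209 in ApoE3 LPS and 22.2 in ApoE3 NaCl. Pnpla2, the lipase that opens those droplets, measured 288 CPM in ApoE4 LPS, 24.9 in ApoE4 NaCl, 256 in ApoE3 LPS and 23.9 in ApoE3 NaCl. In all 3 the LPS libraries of the genotypes were close and the NaCl libraries well below. Hif3a, a hypoxia-inducible factor subunit, measured 145 CPM in ApoE4 LPS, 15.8 in ApoE4 NaCl, 164 in ApoE3 LPS and 21.1 in ApoE3 NaCl. The transcription factors Zbtb16, Klf9 and Klf15 were 3.99-fold, 3.78-fold and 3.42-fold higher in ApoE4 and 4.86-fold, 3.34-fold and 3.21-fold in ApoE3. Pdk4, which turns cells from glucose to fat oxidation, was 4.91-fold and 6.22-fold higher, and Ddit4, an inhibitor of mTORC1, 4.94-fold and 4.73-fold.

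A few genes of that list did not follow. Tsc22d3, which encodes the glucocorticoid-induced leucine zipper, measured 91.7 CPM in ApoE4 LPS, 134 in ApoE4 NaCl, 98.0 in ApoE3 LPS and 119 in ApoE3 NaCl, so both LPS libraries lay below their NaCl library, by 1.46-fold (95% interval 1.29 to 1.67) and 1.21-fold (95% interval 1.09 to 1.34). Rhob, a small GTPase, measured 432 CPM in ApoE4 LPS, 626 in ApoE4 NaCl, 413 in ApoE3 LPS and 609 in ApoE3 NaCl. Glul, the glutamine synthetase, measured 1628 CPM in ApoE4 LPS, 1462 in ApoE4 NaCl, 1866 in ApoE3 LPS and 1709.9 in ApoE3 NaCl. The receptor gene Nr3c1, which is not on the list, measured 216 CPM in ApoE4 LPS, 225 in ApoE4 NaCl, 213 in ApoE3 LPS and 224 in ApoE3 NaCl. None of these 4 genes passed 1.5-fold. The higher counts over the list were broad across cells. Summed over the list and thinned to 1000 UMIs, the median member held 16 UMIs in ApoE4 LPS, 5 in ApoE4 NaCl, 14 in ApoE3 LPS and 5 in ApoE3 NaCl, and the 10th percentile was 7, 2, 7 and 2. Fkbp5 was found in 25.7% of members in ApoE4 LPS, 2.81% in ApoE4 NaCl, 28.1% in ApoE3 LPS and 1.91% in ApoE3 NaCl, and Sgk3 in 44.4% of members in ApoE4 LPS, 6.59% in ApoE4 NaCl, 58.8% in ApoE3 LPS and 8.21% in ApoE3 NaCl. In the same order Fkbp5 was found in 24.0%, 1.79%, 25.1% and 1.83% of Klk6-positive oligodendrocytes. Its shares were 18.2%, 0.844%, 14.2% and 1.01% in astrocyte-like and 27.65%, 12.6%, 30.8% and 12.5% in microglia-like barcodes. The higher share of Fkbp5 under LPS was thus not particular to members. The upper tail in ApoE4 LPS, with a 90th percentile of 51 against 9 in ApoE4 NaCl, 22 in ApoE3 LPS and 10 in ApoE3 NaCl, came from Mt1 and Mt2. Without these the 90th percentile was 18 in ApoE4 LPS, 8 in ApoE4 NaCl, 17 in ApoE3 LPS and 8 in ApoE3 NaCl.

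**Figure D2:**
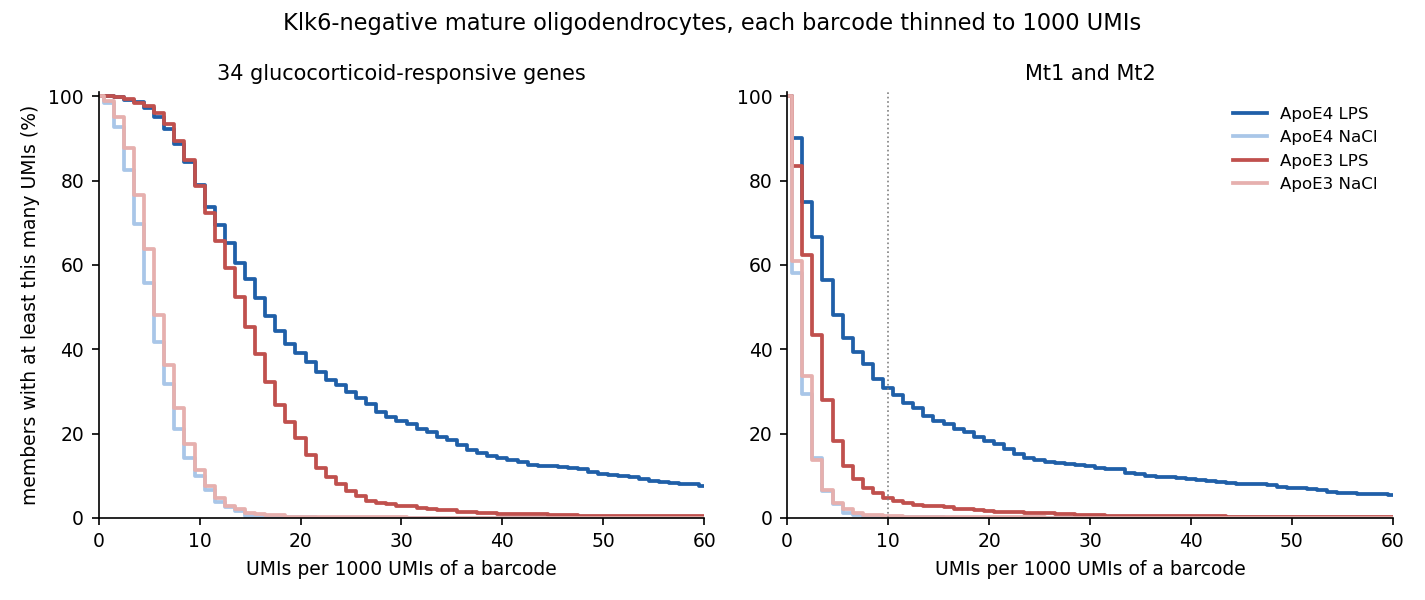
Share of members, in percent, with at least a given number of UMIs of 34 glucocorticoid-responsive genes (left) and of Mt1 and Mt2 (right), after each barcode was thinned to 1000 UMIs; each line is 1 library and the dotted line marks 10 UMIs. The LPS lines lie right of the NaCl lines on the left, and the ApoE4 LPS line has a long tail on the right, with 30.8% of members at 10 or more.

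Most measured immediate-early genes were also higher under LPS. Of 19 listed genes 15 were measured, of which 13 were higher in ApoE4 and 13 in ApoE3, and 0 lower, with medians of 1.86 and 1.54. Fosb, a partner of Jun proteins, measured 110.1 CPM in ApoE4 LPS, 16.5 in ApoE4 NaCl, 152 in ApoE3 LPS and 34.8 in ApoE3 NaCl. Dusp1, a phosphatase that ends MAP kinase signals, measured 183 CPM in ApoE4 LPS, 24.7 in ApoE4 NaCl, 162 in ApoE3 LPS and 38.5 in ApoE3 NaCl. Fos measured 899 CPM in ApoE4 LPS, 283 in ApoE4 NaCl, 759 in ApoE3 LPS and 313 in ApoE3 NaCl. These 3 genes stood higher in both LPS libraries than in either NaCl library. Nr4a1 did not pass 1.5-fold, with 36.2 CPM in ApoE4 LPS, 31.1 in ApoE4 NaCl, 34.3 in ApoE3 LPS and 35.4 in ApoE3 NaCl. Dissociation of tissue is known to induce these genes, and all 4 suspensions were dissociated. Their share at 10 or more UMIs per 1000 was 9.22% of members in ApoE4 LPS, 1.30% in ApoE4 NaCl, 8.30% in ApoE3 LPS and 2.19% in ApoE3 NaCl. Among 11 measured of 22 genes of cell death and p53, 7 were higher and 0 lower in ApoE4, and 6 higher and 1 lower in ApoE3. Bcl2l1 and Bcl2, which hold back apoptosis, were higher at 2.84-fold and 3.72-fold in ApoE4 and 2.72-fold and 4.42-fold in ApoE3. The p53 target Mdm2 had 80.7 CPM in ApoE4 LPS, 70.6 in ApoE4 NaCl, 84.9 in ApoE3 LPS and 71.5 in ApoE3 NaCl. The apoptosis effector Bax measured 63.2 CPM in ApoE4 LPS, 79.0 in ApoE4 NaCl, 51.1 in ApoE3 LPS and 86.2 in ApoE3 NaCl. Mdm2 was within 1.5-fold in both genotypes and Bax was lower in ApoE3. Casp8, Ripk3 and Mlkl, which carry out cell death, were under the limit of 10 CPM on average.

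Secreted lipid-handling proteins were among the most abundant of the genes higher in both genotypes. Apod, a lipocalin that binds arachidonic acid, measured 12239.6 CPM in ApoE4 LPS, 1322 in ApoE4 NaCl, 9826 in ApoE3 LPS and 1336 in ApoE3 NaCl, or 9.26-fold (95% interval 9.01 to 9.52) and 7.36-fold (95% interval 7.17 to 7.55) higher. The per-cell median of Apod was 9 UMIs per 1000 in ApoE4 LPS, 1 in ApoE4 NaCl, 6.5 in ApoE3 LPS and 1 in ApoE3 NaCl. Ptgds measured 27642 CPM in ApoE4 LPS, 12201 in ApoE4 NaCl, 39659 in ApoE3 LPS and 13639.6 in ApoE3 NaCl, or 2.27-fold (95% interval 2.24 to 2.29) and 2.91-fold (95% interval 2.88 to 2.93) higher. In Klk6-positive oligodendrocytes Apod measured 20461 CPM in ApoE4 LPS, 2872 in ApoE4 NaCl, 21919 in ApoE3 LPS and 2917 in ApoE3 NaCl. Ptgds measured 14919 CPM in ApoE4 LPS, 6480 in ApoE4 NaCl, 21779 in ApoE3 LPS and 7793 in ApoE3 NaCl in those cells. The cytosolic iron store Fth1 measured 19682 CPM in ApoE4 LPS, 12509.9 in ApoE4 NaCl, 19449 in ApoE3 LPS and 11711 in ApoE3 NaCl. Il33, an alarmin stored in oligodendrocyte nuclei, measured 679 CPM in ApoE4 LPS, 1006 in ApoE4 NaCl, 379 in ApoE3 LPS and 955 in ApoE3 NaCl, and passed 1.5-fold lower in ApoE3 but not in ApoE4. Car2, a carbonic anhydrase, and Qdpr, which recycles a pterin cofactor, were 2.5-fold and 2.65-fold lower in ApoE4 and 3.01-fold and 2.66-fold lower in ApoE3. Over the 18 measured of 20 subtype genes, 4 were higher and 6 lower in ApoE4, and 5 higher and 5 lower in ApoE3.

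Most called myelin genes were lower under LPS and a few were higher. Of 24 listed myelin proteins 22 were measured, of which 2 were higher and 11 lower in ApoE4 LPS than in ApoE4 NaCl, and 2 higher and 8 lower in ApoE3, with medians of -0.57 and -0.33. Pllp, plasmolipin, a tetraspan protein of the myelin sheath, measured 116 CPM in ApoE4 LPS, 729.6 in ApoE4 NaCl, 112 in ApoE3 LPS and 609.6 in ApoE3 NaCl, or 6.29-fold (95% interval 5.73 to 6.92) and 5.43-fold (95% interval 5.08 to 5.81) lower, and was found in 10.4% of members in ApoE4 LPS, 52.1% in ApoE4 NaCl, 9.73% in ApoE3 LPS and 45.6% in ApoE3 NaCl after thinning. Cnp was 2.09-fold lower in ApoE4 and 1.54-fold lower in ApoE3, at the levels given above. Omg measured 55.1 CPM in ApoE4 LPS, 152 in ApoE4 NaCl, 55.7 in ApoE3 LPS and 130.1 in ApoE3 NaCl. All 3 genes were lower in both LPS libraries. Mbp, whose RNA travels into the sheath, differed less, at 2935 CPM in ApoE4 LPS, 4105 in ApoE4 NaCl, 3492 in ApoE3 LPS and 3770.4 in ApoE3 NaCl. Anln, a scaffold of septin filaments in myelin, was higher, at 704 CPM in ApoE4 LPS, 326 in ApoE4 NaCl, 746 in ApoE3 LPS and 315 in ApoE3 NaCl. Mobp, which compacts myelin, measured 2329 CPM in ApoE4 LPS, 2005 in ApoE4 NaCl, 3038 in ApoE3 LPS and 1758 in ApoE3 NaCl, so that only ApoE3 passed 1.5-fold. Summed over the list the median member held 26 UMIs per 1000 in ApoE4 LPS, 45 in ApoE4 NaCl, 28 in ApoE3 LPS and 43 in ApoE3 NaCl. In Klk6-positive oligodendrocytes the LPS to NaCl ratio of Pllp was 0.181 in ApoE4 and 0.171 in ApoE3, and that of Cnp 0.497 and 0.589. CPM are shares of a total, so a lower CPM does not by itself show fewer molecules per cell.

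Beyond the myelin list, several of the highest-ranked lower genes were shared by both genotypes. Jph4, a junctophilin that tethers the endoplasmic reticulum to the plasma membrane, measured 32.8 CPM in ApoE4 LPS, 249.7 in ApoE4 NaCl, 42.6 in ApoE3 LPS and 248 in ApoE3 NaCl, or 7.61-fold (95% interval 6.39 to 9.11) and 5.81-fold (95% interval 5.21 to 6.48) lower. Wfdc18, a small secreted protein, was 12.7-fold (95% interval 8.66 to 19.5) and 13.3-fold (95% interval 9.59 to 18.9) lower in ApoE4 and ApoE3. Crtac1, an extracellular matrix protein, was 9.21-fold (95% interval 5.78 to 15.5) and 9.47-fold (95% interval 6.77 to 13.5) lower. In Klk6-positive oligodendrocytes the LPS to NaCl ratios were 0.106 and 0.126 for Jph4 and 0.0301 and 0.0433 for Wfdc18. Fbn2, a fibrillin of elastic fibres, was 4.64-fold (95% interval 3.40 to 6.45) and 6.86-fold (95% interval 5.46 to 8.67) lower, and Tenm2, an adhesion protein of synapses, 4.95-fold (95% interval 4.39 to 5.58) and 4.52-fold (95% interval 4.11 to 4.98). Synpr, Bfsp2 and Ninj2 were 5.07-fold, 5.04-fold and 3.97-fold lower in ApoE4, and B3gat1, Ptprn and Lypd6 5.47-fold, 4.65-fold and 4.53-fold. Btbd16 and Cox6b2 were 7.34-fold and 5.60-fold lower in ApoE3. Haemoglobin genes filled 4 of the 12 places in ApoE3, from 6.86-fold for Hbb-bs to 28.5-fold for Hbb-bt, the red cell genes summed above. The genes with a low share were choroid plexus genes in ApoE3 (Sostdc1, Ttr, Kl, Igfbp2 and Folr1, with the neuronal Kcnip4) and neuronal genes in ApoE4 (Rbfox1, Cntn5, Lrfn5, Sgcz, Kcnip4 and Meg3). Ttr, the transthyretin of the choroid plexus, measured 5837 CPM in ApoE4 LPS, 5095 in ApoE4 NaCl, 2246 in ApoE3 LPS and 10631 in ApoE3 NaCl, and without the 5% of members with the most UMIs its log2 ratio in ApoE3 was 0.57, on the other side of 0.

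**Figure D3:**
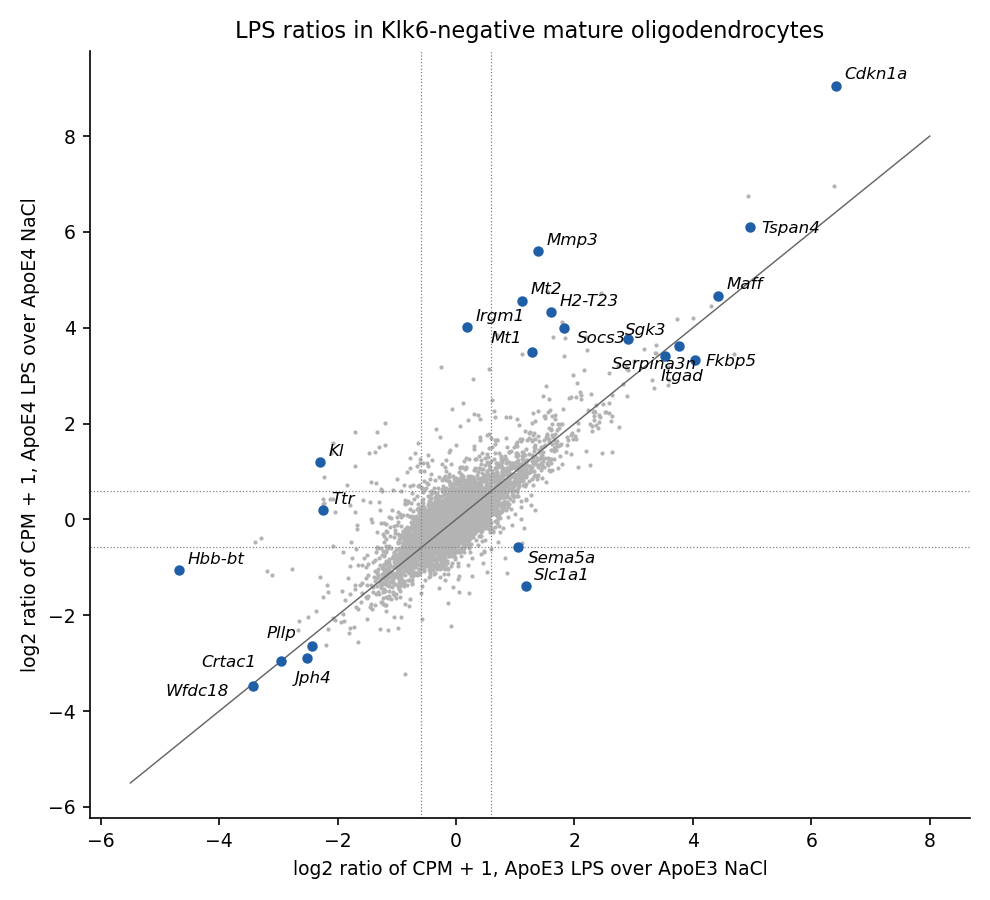
Log2 ratio of CPM + 1 between LPS and NaCl members in ApoE4 (vertical) against ApoE3 (horizontal) for 8597 genes; each point is a gene, the diagonal marks equal ratios and the dotted lines 1.5-fold. Cdkn1a, Tspan4, Sgk3 and Fkbp5 lie high on both axes, Wfdc18, Crtac1, Jph4 and Pllp low on both, and Mt1, Mt2, Irgm1, H2-T23 and Mmp3 lie above the diagonal.

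Called cholesterol synthesis genes were lower under LPS, while other lipid and energy genes did not move one way. Of 28 cholesterol synthesis genes 25 were measured, 9 of them lower in ApoE4 and 8 in ApoE3 and 0 higher, with medians of -0.36 and -0.44. Cyp51, lanosterol demethylase, measured 32.1 CPM in ApoE4 LPS, 64.4 in ApoE4 NaCl, 29.5 in ApoE3 LPS and 62.1 in ApoE3 NaCl. Hmgcs1, at the head of the pathway, measured 86.1 CPM in ApoE4 LPS, 166 in ApoE4 NaCl, 80.2 in ApoE3 LPS and 128 in ApoE3 NaCl. The NaCl libraries were above the LPS libraries for both genes. Acaca, acetyl-CoA carboxylase, which commits carbon to fatty acids, was higher under LPS, at 670.5 CPM in ApoE4 LPS, 177 in ApoE4 NaCl, 953 in ApoE3 LPS and 181 in ApoE3 NaCl, or 3.78-fold (95% interval 3.49 to 4.10) and 5.27-fold (95% interval 4.91 to 5.67). Of the 27 measured galactolipid and fatty acid genes, 3 were higher and 4 lower in each genotype. Of 70 nuclear oxidative phosphorylation genes 1 was lower in ApoE4 and 17 in ApoE3 and 0 higher, with medians of -0.22 and -0.41. Of 76 cytosolic ribosomal protein genes 0 were called in ApoE4 and 3 lower in ApoE3, with medians of 0.13 and -0.11. Slc16a1, the lactate transporter through which oligodendrocytes feed axons, measured 33.5 CPM in ApoE4 LPS, 59.1 in ApoE4 NaCl, 32.2 in ApoE3 LPS and 65.2 in ApoE3 NaCl. Abca1, which exports cholesterol, measured 147 CPM in ApoE4 LPS, 61.3 in ApoE4 NaCl, 178 in ApoE3 LPS and 80.8 in ApoE3 NaCl. Sequence assigned to the mouse Apoe gene measured 44.3 CPM in ApoE4 LPS, 31.6 in ApoE4 NaCl, 51.2 in ApoE3 LPS and 33.7 in ApoE3 NaCl, a value that does not measure the human transcript.

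Lineage regulators did not move one way. Of 20 listed transcription factors 16 were measured, with 3 higher and 3 lower in ApoE4 and 3 higher and 4 lower in ApoE3, and medians of -0.31 and -0.23. Sox10, which holds oligodendrocyte identity, measured 211 CPM in ApoE4 LPS, 344 in ApoE4 NaCl, 215 in ApoE3 LPS and 352 in ApoE3 NaCl. Myrf, the myelin regulatory factor, measured 303 CPM in ApoE4 LPS, 266 in ApoE4 NaCl, 284 in ApoE3 LPS and 257 in ApoE3 NaCl. Olig1 measured 279 CPM in ApoE4 LPS, 545 in ApoE4 NaCl, 352 in ApoE3 LPS and 483 in ApoE3 NaCl. Sox2, a factor of progenitor cells, measured 147 CPM in ApoE4 LPS, 65.1 in ApoE4 NaCl, 144 in ApoE3 LPS and 67.1 in ApoE3 NaCl. Sox10 was lower and Sox2 higher in both LPS libraries, Olig1 was lower in ApoE4 and within 1.5-fold in ApoE3, and Myrf was within 1.5-fold in both. Klf13 measured 807 CPM in ApoE4 LPS, 459 in ApoE4 NaCl, 971 in ApoE3 LPS and 468 in ApoE3 NaCl. Among channels and junction genes, 5 were higher and 3 lower in ApoE4 and 6 higher and 4 lower in ApoE3 of 23 measured. Kcna1, a potassium channel, was higher at 644 CPM in ApoE4 LPS, 278 in ApoE4 NaCl, 770.3 in ApoE3 LPS and 346 in ApoE3 NaCl. Of 14 measured clock genes 4 were higher and 4 lower in ApoE4 and 3 higher and 3 lower in ApoE3. Arntl, the activator of the clock, measured 30.1 CPM in ApoE4 LPS, 7.66 in ApoE4 NaCl, 28.7 in ApoE3 LPS and 12.2 in ApoE3 NaCl. Its output gene Dbp measured 12.1 CPM in ApoE4 LPS, 31.4 in ApoE4 NaCl, 16.3 in ApoE3 LPS and 32.8 in ApoE3 NaCl. The hour of death is not given in the sources used here.

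The LPS libraries of the genotypes differed in inflammatory and metal-binding genes, and genotype and library cannot be told apart here. In ApoE4 LPS against ApoE3 LPS, 307 genes (3.57%) were at least 1.5-fold higher and 98 (1.14%) lower. Mt1 and Mt2, metallothioneins that bind zinc and copper, led by level. Mt1 measured 11483 CPM in ApoE4 LPS, 1013 in ApoE4 NaCl, 2818 in ApoE3 LPS and 1157 in ApoE3 NaCl, so ApoE4 LPS exceeded ApoE3 LPS by 4.08-fold (95% interval 4.02 to 4.13). Mt2 measured 1201 CPM in ApoE4 LPS, 49.8 in ApoE4 NaCl, 158 in ApoE3 LPS and 72.3 in ApoE3 NaCl, with 7.58-fold (95% interval 7.18 to 8.01). The LPS ratio of Mt1 was 11.3 in ApoE4 and 2.43 in ApoE3, and the log2 difference between these ratios was 2.22 (95% interval 2.16 to 2.28), with 3.46 (95% interval 3.20 to 3.72) for Mt2. In ApoE4 LPS Mt1 in members stood at 56.9% of its astrocyte-like level and Mt2 at 28.0% of its fibroblast-like level, the highest other classes. After thinning, Mt1 was found in 98.4% of astrocyte-like barcodes in ApoE4 LPS, 94.5% in ApoE4 NaCl, 95.8% in ApoE3 LPS and 95.1% in ApoE3 NaCl. Mt1 was also highest in ApoE4 LPS in microglia-like barcodes, at 3903 CPM in ApoE4 LPS, 448 in ApoE4 NaCl, 952 in ApoE3 LPS and 485 in ApoE3 NaCl. Free RNA and expression by microglia cannot be told apart in that value, and the part of free RNA in the members' level was not tested.

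Most measured interferon-stimulated and antigen presentation genes were higher in ApoE4 LPS than in ApoE3 LPS. Of 49 listed interferon-stimulated genes only 10 were measured, 8 of them higher and 0 lower in ApoE4 LPS against ApoE3 LPS, with a median of 0.99 beside 0.02 over all genes. Against their own NaCl library 8 were higher in ApoE4 and 4 in ApoE3, with medians of 1.88 and 0.36. Measured means a mean of at least 10 CPM over the 4 libraries, so a gene can pass through a high ApoE4 LPS level alone. Irgm1 and Herc6 did so, each being under 10 CPM in every other library. The limit therefore favours genes high in ApoE4 LPS, and the counts and medians of this list and of the class I list are a description only. Irgm1, an immunity-related GTPase of the interferon gamma response, measured 65.2 CPM in ApoE4 LPS, 3.11 in ApoE4 NaCl, 5.08 in ApoE3 LPS and 4.34 in ApoE3 NaCl, or 12.8-fold (95% interval 9.61 to 17.4) between the LPS libraries and 1.17-fold between the ApoE3 libraries. Herc6, a ubiquitin ligase induced by interferon, measured 30.1 CPM in ApoE4 LPS, 4.79 in ApoE4 NaCl, 8.98 in ApoE3 LPS and 8.26 in ApoE3 NaCl. The ApoE3 libraries were close to each other for Irgm1 and Herc6. All 8 measured of 17 class I presentation genes were higher in ApoE4 LPS against ApoE3 LPS, with a median of 1.09. Transcripts of other cell types moved with them, as 6 of 8 measured microglial, 3 of 3 endothelial and 6 of 7 choroid plexus transcripts were higher in the same comparison, with medians of 0.73, 1.30 and 1.38. H2-T23, a non-classical class I chain, measured 67.0 CPM in ApoE4 LPS, 2.39 in ApoE4 NaCl, 12.6 in ApoE3 LPS and 3.48 in ApoE3 NaCl. B2m, the light chain of class I molecules, measured 153 CPM in ApoE4 LPS, 34 in ApoE4 NaCl, 74.1 in ApoE3 LPS and 39.1 in ApoE3 NaCl. H2-D1 measured 126 CPM in ApoE4 LPS, 27.8 in ApoE4 NaCl, 60.1 in ApoE3 LPS and 37.8 in ApoE3 NaCl. The immunoproteasome subunit Psmb10 measured 23.4 CPM in ApoE4 LPS, 8.62 in ApoE4 NaCl, 7.08 in ApoE3 LPS and 10.2 in ApoE3 NaCl. ApoE4 LPS was the highest library for each of these 4 genes. In microglia-like barcodes B2m stood at 1723 CPM in ApoE4 LPS, 1547 in ApoE4 NaCl, 2034 in ApoE3 LPS and 1469 in ApoE3 NaCl, and H2-D1 at 502, 389.9, 569 and 398 CPM. B2m in members was under 10% of its microglia-like level in each library. Against their own NaCl library all 8 were higher in ApoE4, with a median of 1.74, and 4 in ApoE3, with a median of 0.43. In Klk6-positive oligodendrocytes the LPS ratio of Irgm1 was 28.5 in ApoE4 and 2.61 in ApoE3, and that of H2-T23 37.7 and 27.9. Other cells carried these RNAs as well, with Irgm1 in ApoE4 LPS at 115 CPM in astrocyte-like, 42.8 in microglia-like and 86.8 in endothelial-like barcodes, and the part of free RNA in the members' level was not tested. No class II gene reached the limit of 10 CPM.

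Most measured acute-phase genes were higher in both LPS libraries. Of 30 listed NF-kB and acute-phase genes 13 were measured, of which 9 in ApoE4 and 8 in ApoE3 were higher and 0 lower under LPS, with medians of 2.27 and 1.64, and 6 were higher in ApoE4 LPS than in ApoE3 LPS. Serpina3n, a secreted serine protease inhibitor and a marker of disease-associated oligodendrocytes, measured 530.0 CPM in ApoE4 LPS, 38.3 in ApoE4 NaCl, 204 in ApoE3 LPS and 26.3 in ApoE3 NaCl, or 13.8-fold (95% interval 11.8 to 16.3) and 7.74-fold (95% interval 6.45 to 9.38) higher under LPS and 2.60-fold (95% interval 2.46 to 2.76) between the LPS libraries. After thinning, Serpina3n was also found in 13.8% of microglia-like barcodes in ApoE4 LPS, 0.158% in ApoE4 NaCl, 0.828% in ApoE3 LPS and 0.141% in ApoE3 NaCl. In astrocyte-like barcodes the shares were 31.8%, 4.96%, 19.2% and 1.01%. The part of free RNA in the members' level of Serpina3n was not tested. Socs3, which blocks cytokine receptor signals, measured 41.6 CPM in ApoE4 LPS, 1.68 in ApoE4 NaCl, 15.6 in ApoE3 LPS and 3.69 in ApoE3 NaCl. Cebpd, a transcription factor of the acute phase, measured 136 CPM in ApoE4 LPS, 8.86 in ApoE4 NaCl, 64.9 in ApoE3 LPS and 20.2 in ApoE3 NaCl. Gadd45b, a stress sensor, measured 162 CPM in ApoE4 LPS, 13.9 in ApoE4 NaCl, 63.3 in ApoE3 LPS and 28.7 in ApoE3 NaCl. In ApoE4 LPS each was over 2 times its ApoE3 LPS level. Nfkbia, the inhibitor of NF-kB, was close in the LPS libraries at 294 CPM in ApoE4 LPS, 60.1 in ApoE4 NaCl, 282 in ApoE3 LPS and 55.4 in ApoE3 NaCl. C4b, a complement component of reactive oligodendrocytes, measured 161 CPM in ApoE4 LPS, 51.7 in ApoE4 NaCl, 193 in ApoE3 LPS and 64.7 in ApoE3 NaCl and was thus not higher in ApoE4 LPS than in ApoE3 LPS. Mmp3, a matrix protease, measured 47.6 CPM in ApoE4 LPS, 0 in ApoE4 NaCl, 2.18 in ApoE3 LPS and 0.217 in ApoE3 NaCl, at least 66.4-fold higher in ApoE4 LPS than the 3 UMIs that a count of 0 allows in ApoE4 NaCl. Over the 20 measured of 28 disease-associated oligodendrocyte genes, 13 were higher and 1 lower in ApoE4, 12 higher and 3 lower in ApoE3, and 9 higher and 0 lower in ApoE4 LPS against ApoE3 LPS. That list shares Cdkn1a, Sgk1, Plin4, Socs3, Nfkbia, C4b, B2m, H2-D1 and H2-K1 with other lists given here.

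Receptor, iron and redox genes gave smaller numbers. Of 30 listed cytokine and LPS receptors 13 were measured, of which 4 were higher and 0 lower in ApoE4 LPS against ApoE3 LPS. The metal transporter Slc39a14, which carries zinc and iron into cells, measured 103 CPM in ApoE4 LPS, 8.86 in ApoE4 NaCl, 41.8 in ApoE3 LPS and 11.1 in ApoE3 NaCl, or 11.7-fold (95% interval 8.34 to 16.8) and 3.77-fold (95% interval 2.82 to 5.15) higher under LPS. Over the 12 measured iron genes 4 were higher and 0 lower in ApoE4, and 3 higher and 1 lower in ApoE3. Mt3, the brain metallothionein, measured 251 CPM in ApoE4 LPS, 196 in ApoE4 NaCl, 109.6 in ApoE3 LPS and 271 in ApoE3 NaCl, and was unlike Mt1 and Mt2 in ApoE3, where it was lower under LPS. Of 18 measured metallothionein and redox genes 6 were higher and 3 lower in ApoE4, and 3 higher and 4 lower in ApoE3. The integrated stress response list had 6 higher and 0 lower in ApoE4 and 5 higher and 1 lower in ApoE3 of 17 measured, with medians of 0.32 and -0.16. The heat-shock list had 4 higher and 2 lower in ApoE4 and 4 higher and 3 lower in ApoE3 of 17. The axon support list had 4 higher and 2 lower in ApoE4 and 1 higher and 5 lower in ApoE3 of 20 measured, cholesterol transport 1 and 4 in ApoE4 and 2 and 2 in ApoE3 of 15, and complement 3 and 0 in ApoE4 and 2 and 2 in ApoE3 of 4.

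The 250 bases before the start of these genes, from the RefSeq promoter table of build GRCm38.p6, are shown for 5 genes that were higher in ApoE4 LPS than in ApoE3 LPS, with the letters of 3 known response elements searched in them. The glucocorticoid list as a whole did not set these libraries apart, with 2 of its 27 measured genes higher, 0 lower and a median of -0.02. Each is given 5′ to 3′ on the strand of the gene, with 1 kind of match per sequence in capitals. Capitals mark GNACANNNTGTNC (glucocorticoid response element) in Serpina3n and Mt1, TGCNCNC or its reverse complement (metal response element) in Mt2, and GAAANNGAAA or its reverse complement (interferon-stimulated response element) in Irgm1 and H2-T23, all searched on both strands. Mt1 also holds the metal element, which is left in lower case. The genes shown were chosen together with the element marked in each, so every sequence shown holds a match. The regions are chr12:104406458-104406707 (plus strand), chr8:94178839-94179088 (plus), chr8:94172368-94172617 (plus), chr11:48871421-48871670 (minus) and chr17:36032702-36032951 (minus).
Serpina3n: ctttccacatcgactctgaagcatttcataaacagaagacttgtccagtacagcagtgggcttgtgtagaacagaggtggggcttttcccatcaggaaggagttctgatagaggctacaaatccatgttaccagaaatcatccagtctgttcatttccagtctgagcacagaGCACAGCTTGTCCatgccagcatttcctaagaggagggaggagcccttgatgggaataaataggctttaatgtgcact
Mt1: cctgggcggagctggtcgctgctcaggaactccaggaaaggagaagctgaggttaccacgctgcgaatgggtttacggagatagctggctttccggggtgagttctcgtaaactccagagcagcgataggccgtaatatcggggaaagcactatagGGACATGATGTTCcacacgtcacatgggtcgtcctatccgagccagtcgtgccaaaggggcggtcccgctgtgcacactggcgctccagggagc
Mt2: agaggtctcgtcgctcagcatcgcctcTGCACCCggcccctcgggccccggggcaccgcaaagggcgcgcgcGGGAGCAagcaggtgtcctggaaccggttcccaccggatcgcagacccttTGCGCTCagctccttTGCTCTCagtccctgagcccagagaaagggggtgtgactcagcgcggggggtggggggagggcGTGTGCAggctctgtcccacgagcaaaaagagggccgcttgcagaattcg
Irgm1: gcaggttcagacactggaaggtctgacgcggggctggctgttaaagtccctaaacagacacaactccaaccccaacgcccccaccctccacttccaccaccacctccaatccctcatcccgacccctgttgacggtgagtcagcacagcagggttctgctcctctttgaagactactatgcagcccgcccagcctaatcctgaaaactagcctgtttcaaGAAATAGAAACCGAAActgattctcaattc
H2-T23: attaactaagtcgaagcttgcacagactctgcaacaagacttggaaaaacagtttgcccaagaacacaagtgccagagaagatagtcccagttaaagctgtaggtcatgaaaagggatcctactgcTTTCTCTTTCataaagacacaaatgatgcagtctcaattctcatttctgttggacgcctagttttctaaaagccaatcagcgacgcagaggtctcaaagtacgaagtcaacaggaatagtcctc
The match begins 78 bases before the start in Serpina3n, 94 in Mt1 and 124 in H2-T23, and the overlapping pair in Irgm1 begins 30 and 24 bases before it. Mt2 holds 5 matches of the metal element. In such a window 0.440% of the 27025 genes there hold the glucocorticoid element, 3.46% the interferon element and 47.2% the short metal element. By group, the glucocorticoid element stood in 3 of the 29 listed glucocorticoid genes with a sequence (Map3k6, Mt1 and Sgk1) and the interferon element in 19 of 36 listed interferon-stimulated genes. The metal element stood in 22 of those 29 genes and in 14 of those 36. Of the 12 highest-ranked higher genes of ApoE4 LPS against ApoE3 LPS, all with a sequence, 3 held the interferon element (H2-T23, Irgm1 and Snx10) and 8 the metal element. In ApoE3 LPS against ApoE3 NaCl 9 of 12 had a sequence, and 0 held either the glucocorticoid or the interferon element. Cdkn1a and Fkbp5 were without a glucocorticoid match in these windows. A match of letters is a description and not a binding site.

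Differences between the genotypes in the size of the LPS ratio were counted over the same 8597 genes. In ApoE4 the ratio was at least 1.5 times that in ApoE3 for 536 genes (6.23%) and at most the inverse for 247 (2.87%). On the log2 scale, with 0.5 counts added, the difference was 4.13 (95% interval 3.06 to 5.21) for Irgm1, 2.92 (95% interval 1.77 to 4.07) for H2-T23, 3.04 (95% interval 2.07 to 4.01) for Cdkn1a, 2.40 (95% interval 1.93 to 2.87) for Gadd45b, 2.25 (95% interval 1.68 to 2.81) for Cebpd, 2.89 (95% interval 1.91 to 3.88) for Flnc, an actin crosslinker, and 2.55 (95% interval 1.72 to 3.38) for Snx10, a sorting nexin. That of Cdkn1a came from the NaCl side, since the LPS libraries were near level. Gadd45b and Cebpd differed on both sides. Their ApoE4 NaCl levels, 13.9 and 8.86 CPM, lay below the 28.7 and 20.2 CPM of ApoE3 NaCl, and their ApoE4 LPS levels lay above those of ApoE3 LPS. All 8 class I genes, 8 of 10 interferon-stimulated genes and 10 of 20 disease-associated genes had the larger ratio in ApoE4, with medians of 1.41, 0.99 and 0.61 beside 0.03 over all genes, while the glucocorticoid list had 3 above and 2 below and a median of 0.06. The limit on the mean level lets in genes high in ApoE4 LPS alone, such as Irgm1 and Herc6, which favours a larger ratio in ApoE4. These list counts are therefore a description only. Genes with the smaller ratio in ApoE4 included Sema5a, a semaphorin, at -1.67 (95% interval -2.17 to -1.16), Ust, a sulfotransferase, at -1.47 (95% interval -1.78 to -1.15), Synpr at -1.18 (95% interval -1.46 to -0.90), Fam214a at -1.13 (95% interval -1.37 to -0.89) and Tmem163 at -1.15 (95% interval -1.42 to -0.87).

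Genes of newly formed oligodendrocytes were among those. Of 16 listed 10 were measured, and 6 had a smaller LPS ratio in ApoE4 than in ApoE3 and 0 a larger one, with a median of -0.63. In ApoE3 3 were higher under LPS and 0 lower, and in ApoE4 1 was higher and 3 lower. Tcf7l2, a transcription factor of the step from precursor to myelinating cell, measured 116 CPM in ApoE4 LPS, 121 in ApoE4 NaCl, 179 in ApoE3 LPS and 110.4 in ApoE3 NaCl. Fyn, a kinase of early myelination, measured 119.6 CPM in ApoE4 LPS, 143 in ApoE4 NaCl, 170.4 in ApoE3 LPS and 109.7 in ApoE3 NaCl. Tmem163 measured 67.4 CPM in ApoE4 LPS, 108 in ApoE4 NaCl, 104 in ApoE3 LPS and 74.9 in ApoE3 NaCl. Of these 3 genes, only Tcf7l2 and Fyn in ApoE3, which were higher, and Tmem163 in ApoE4, which was lower, passed 1.5-fold. In Klk6-positive oligodendrocytes Tcf7l2 measured 80.4 CPM in ApoE4 LPS, 68.7 in ApoE4 NaCl, 99.5 in ApoE3 LPS and 85.7 in ApoE3 NaCl. Fyn measured 84.5 CPM in ApoE4 LPS, 67.0 in ApoE4 NaCl, 95.4 in ApoE3 LPS and 77.4 in ApoE3 NaCl in those cells, and Tmem163 34.1 CPM in ApoE4 LPS, 39.5 in ApoE4 NaCl, 38.1 in ApoE3 LPS and 35.7 in ApoE3 NaCl. All 3 were within 1.5-fold there in both genotypes. Enpp6, a marker of newly formed cells, measured 50.6 CPM in ApoE4 LPS, 58.6 in ApoE4 NaCl, 68.9 in ApoE3 LPS and 52.8 in ApoE3 NaCl. Itpr2, a calcium channel of the endoplasmic reticulum, was higher under LPS in both genotypes, at 2.20-fold and 2.11-fold. Ctps, CTP synthase, was lower under LPS in ApoE4, with 11.2 CPM in ApoE4 LPS and 31.4 in ApoE4 NaCl. It was near level in ApoE3, with 15.4 CPM in ApoE3 LPS and 16.1 in ApoE3 NaCl. Gpr17 and Bmp4, genes of cells that have just left the precursor state, were under the limit of 10 CPM on average.

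The genes lower in ApoE4 LPS than in ApoE3 LPS were few and differed by small factors. Ust was 1.97-fold (95% interval 1.68 to 2.32) lower, Zfp14 2.03-fold (95% interval 1.56 to 2.67), Fam214a 1.62-fold (95% interval 1.51 to 1.75), Tmem132b 1.55-fold (95% interval 1.43 to 1.67), Heg1 1.52-fold (95% interval 1.40 to 1.65) and Tcf7l2 1.53-fold (95% interval 1.39 to 1.69). Cdk14, Col23a1, Rasgef1b, Sh3rf1, Peg3 and Klhl13 lay between 1.63-fold and 1.95-fold lower. Cdk14 turned to the other side of 1 when members with any UMI of another cell type were left out and when barcodes were thinned. Haemoglobin genes were among the higher ones, from 5.48-fold for Hba-a1 to 20.2-fold for Hbb-bt, which are the red cell genes summed above. Genes with a low share in this pair were Ccl5, Hspb1, Chil1, Hs6st3, Saa3 and Slc38a1 among the higher and Galntl6, Tnr, Slc1a1, Spp1, Nxph1 and Rbfox1 among the lower. No list had more than 2 of its measured genes lower in ApoE4 LPS against ApoE3 LPS.

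**Figure D4:**
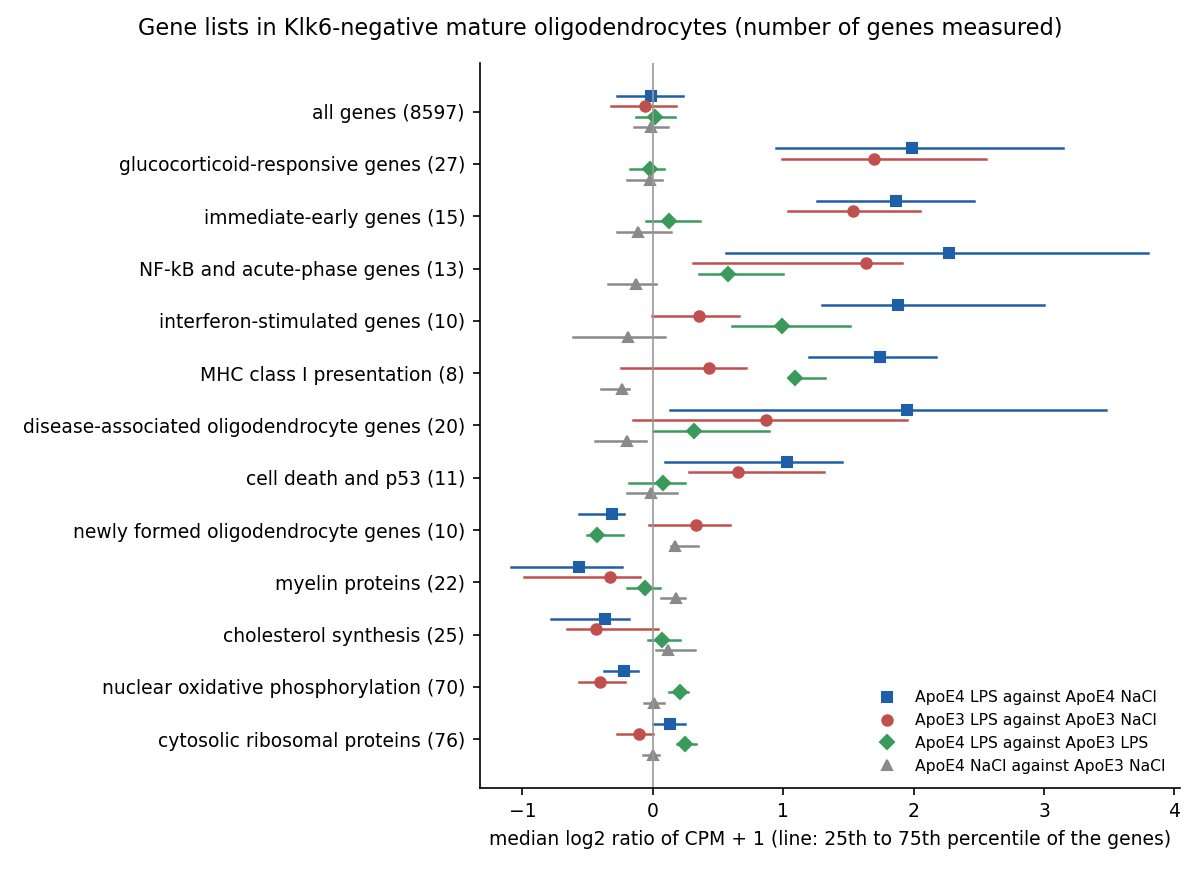
Median log2 ratio of CPM + 1 of gene lists in members, with the number of genes measured in brackets; symbols are medians in 4 comparisons and lines run from the 25th to the 75th percentile of the genes. The glucocorticoid and immediate-early lists lie between 1.54 and 1.99 in both LPS comparisons, the class I and interferon lists are further right in ApoE4 than in ApoE3, and the ApoE4 NaCl against ApoE3 NaCl medians lie between -0.24 and 0.18.

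Metallothionein RNA was unevenly spread among the members of ApoE4 LPS. After thinning to 1000 UMIs, the median member held 4 UMIs of Mt1 and Mt2 in ApoE4 LPS, 1 in ApoE4 NaCl, 2 in ApoE3 LPS and 1 in ApoE3 NaCl, and the 90th percentile was 35, 3, 6 and 3. At 10 or more stood 287 members (30.8%) in ApoE4 LPS, 1 (0.108%) in ApoE4 NaCl, 85 (4.70%) in ApoE3 LPS and 5 (0.477%) in ApoE3 NaCl. The limit of 10 was set after the values were seen and cuts a continuous range, with 36 members of ApoE4 LPS and 33 of ApoE3 LPS at 9 or 10. In ApoE4 LPS, members at or over the limit had Irgm1 at 184 CPM against 18.5 CPM in members under it, a ratio of 9.96-fold (95% interval 7.45 to 13.5). H2-T23 was 10.3-fold (95% interval 7.72 to 13.9) higher, Gadd45b 9.38-fold (95% interval 7.84 to 11.3), B2m 4.26-fold (95% interval 3.64 to 4.99) and Serpina3n 3.93-fold (95% interval 3.62 to 4.28), the last at 1140.2 CPM against 290.0 CPM. The same genes were higher in the 85 such members of ApoE3 LPS, with Serpina3n at 6.92-fold (95% interval 6.28 to 7.63), Socs3 at 9.88-fold (95% interval 7.02 to 13.7) and B2m at 3.22-fold (95% interval 2.60 to 3.95). Genes of other cells split differently in the LPS libraries. Ttr stood at 1.19 times the level of members under the limit in ApoE4 LPS and 0.0761 times in ApoE3 LPS. Hbb-bs stood at 1.16 and 0.0494 times and Lcn2 at 1.26 and 0.119 times, each at 10.2 CPM over the limit in ApoE3 LPS. Mmp3 was 6.75-fold higher in ApoE4 LPS and at 0 CPM over the limit in ApoE3 LPS. Even under the limit, Serpina3n in ApoE4 LPS exceeded the 161 CPM of ApoE3 LPS, and Irgm1 the 4.18 CPM. H2-T23 stood at 18.5 CPM in ApoE4 LPS and 10.9 in ApoE3 LPS there. Other genes were nearer to level under the limit. B2m stood at 79.9 CPM in ApoE4 LPS and 67.5 in ApoE3 LPS, and H2-D1 at 56.1 and 53.9. Gadd45b stood lower in ApoE4 LPS, at 48.2 CPM against 53.4 in ApoE3 LPS.

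Of the myelin and oligodendrocyte genes split in this way, which were chosen after their values were seen, some stood lower in these members and some higher. In ApoE4 LPS Cnp stood at 0.595 times the level of members under the limit, Ptgds at 0.515, Mog at 0.5 and Pllp at 0.460 times, and in ApoE3 LPS Cnp at 0.796, Ptgds at 0.794, Mog at 0.612 and Pllp at 0.928 times, the last with an interval that reaches 1 (0.687 to 1.23). Opalin went the other way, at 1.29 times in ApoE4 LPS and 1.39 times in ApoE3 LPS, and Trf, transferrin, stood at 0.761 and 1.23 times. Mog and Opalin are markers of the rule. Apod was 1.52 times the level in ApoE4 LPS and 1.19 times in ApoE3 LPS. Fkbp5 was 1.82 times in ApoE4 LPS and 1.19 times in ApoE3 LPS, and Cdkn1a 2.51 and 1.86 times. The members over the limit in ApoE4 LPS had a median of 3588 UMIs and 5 of 8 markers, against 4235 UMIs and 6 markers under it. The 3 mice were pooled, so whether such members came from each mouse or from 1 cannot be told apart.

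**Figure D5:**
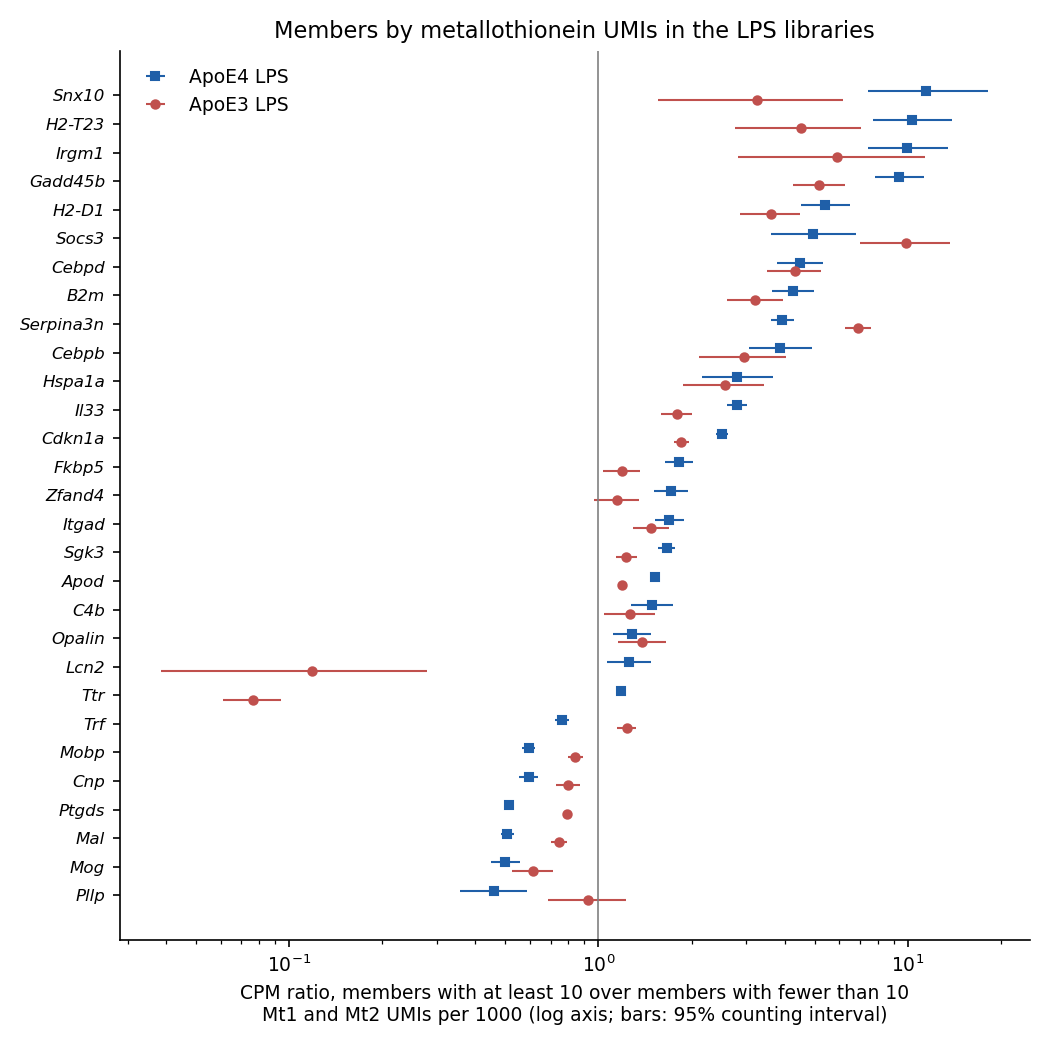
Ratio of CPM between members with at least 10 and members with fewer than 10 UMIs of Mt1 and Mt2 per 1000, on a log axis, in ApoE4 LPS and ApoE3 LPS; bars are 95% intervals of counting error and the genes were chosen after their values were seen. Snx10, H2-T23, Irgm1 and Gadd45b lie right of 1 in both libraries and Cnp, Ptgds, Mal and Mog left of 1. Ttr and Lcn2 lie right of 1 in ApoE4 LPS and left of 1 in ApoE3 LPS, and Mmp3 and Hbb-bs are not drawn.

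Over most genes the NaCl libraries of the genotypes were close. In ApoE4 NaCl against ApoE3 NaCl 116 genes (1.35%) were at least 1.5-fold higher and 206 (2.4%) lower, and over all 8597 genes the median log2 ratio was -0.01. Of 22 myelin proteins, 25 cholesterol genes, 27 glucocorticoid genes and 8 class I genes, 0, 2, 1 and 0 were higher and 0, 0, 1 and 0 lower. Some other lists held a larger share of lower genes. Of 20 disease-associated, 10 interferon-stimulated, 13 NF-kB and acute-phase and 15 immediate-early genes, 4, 3, 3 and 3 were lower. In the same lists 0, 0, 1 and 1 were higher. All 7 measured choroid plexus transcripts were lower. Cdkn1a was the highest-ranked lower gene, with 2.15 CPM in ApoE4 NaCl against 17.6 in ApoE3 NaCl on 9 and 81 UMIs, or 8.17-fold (95% interval 4.10 to 18.5) lower. In Klk6-positive oligodendrocytes of the same libraries it measured 15.3 CPM in ApoE4 NaCl and 16.7 CPM in ApoE3 NaCl, so the cells left out were level. Fosb at 16.5 CPM in ApoE4 NaCl against 34.8 in ApoE3 NaCl, Gadd45b at 13.9 CPM in ApoE4 NaCl against 28.7 in ApoE3 NaCl and Spred2, an inhibitor of Ras signalling, at 12.9 CPM in ApoE4 NaCl against 25.9 in ApoE3 NaCl were also lower in ApoE4. Pbx3, Cab39l, Cpt2, Wdfy1, Ago2, Skiv2l, Pnp and Mettl25 were 1.53-fold to 2.12-fold lower.

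The inducible chaperones Hspa1a and Hspa1b were among the genes higher in ApoE4 NaCl. Hspa1a measured 53.5 CPM in ApoE4 LPS, 53.4 in ApoE4 NaCl, 42.7 in ApoE3 LPS and 19.3 in ApoE3 NaCl, or 2.76-fold (95% interval 2.15 to 3.57) higher in ApoE4 NaCl than in ApoE3 NaCl. Hspa1b measured 55.7 CPM in ApoE4 LPS, 63.7 in ApoE4 NaCl, 48.0 in ApoE3 LPS and 27.4 in ApoE3 NaCl, with 2.33-fold (95% interval 1.87 to 2.90). ApoE3 NaCl was the low library, and the LPS libraries were nearer to ApoE4 NaCl. The chaperone Hspa8 was level at 695 CPM in ApoE4 LPS, 615 in ApoE4 NaCl, 635 in ApoE3 LPS and 644 in ApoE3 NaCl. Hsph1 differed with LPS and not with genotype, at 114 CPM in ApoE4 LPS, 62.0 in ApoE4 NaCl, 111 in ApoE3 LPS and 69.1 in ApoE3 NaCl. Of 17 heat-shock genes 2 were higher and 1 lower in ApoE4 NaCl. Cldn14, a claudin, measured 26.3 CPM in ApoE4 LPS, 29.9 in ApoE4 NaCl, 30.9 in ApoE3 LPS and 13.5 in ApoE3 NaCl. Birc2, an inhibitor of apoptosis, was 1.94-fold (95% interval 1.57 to 2.41) higher and Ctps, CTP synthase, 1.95-fold (95% interval 1.46 to 2.63). S100b, a calcium-binding protein that the Klk6-positive cells also carry, was 1.58-fold (95% interval 1.36 to 1.83) higher. Arhgap15, Hist1h2be, Rnd2 and Eif2s3y were 1.54-fold to 2.13-fold higher. Hbb-bs, a red cell gene, was 1.67-fold higher. Ccl5, a chemokine, rested on 23 and 2 UMIs and turned to the other side of 1 when the Klk6 and Serpinb1a barcodes were included. The genes with a low share were neuronal or precursor genes among the higher (Cntn5, Kcnip4, Arpp21, Sgcz, Dpp10 and Sema5a) and genes of fibroblasts, vessels and choroid plexus among the lower (Spp1, Mgp, Sulf1, Ccnd2, Htr2c and Clic6). Called genes here split into 36.0% higher and the rest lower, but 52.7% were higher with the Klk6 and Serpinb1a barcodes included, 46.8% with thinned barcodes and 25.8% with at least 5 markers. Between the LPS libraries 75.8% of called genes were higher in ApoE4, against 57.8% with thinned barcodes and 59.0% with every gene of at least 1 UMI.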

How the data were processed

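Glia-enriched suspensions of 3 mice per group were run as 1 10x 3′ library each, and the authors deposited a filtered matrix of UMI counts per gene and barcode, which per the file headers Cell Ranger 7.0.1 had written, on build mm10 per the submitters' processing notes. The reads of barcodes below their cell filter are not used here. Members' raw counts were summed per library and divided by the library's member total (CPM). No doublet caller was run, and the limit on other types' genes and an alternative without the 5% of members with the most UMIs stand in for it.

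Genes with a mean of at least 10 CPM over the 4 libraries were compared, and a gene was called at a ratio of at least 1.5 either way. This mean lets in genes that are high in 1 library alone, which favours calls toward that library in the list counts. Ratios have exact binomial 95% intervals conditional on both counts, differences between ratios have Poisson intervals with 0.5 counts added, shares have exact Clopper-Pearson intervals, and list medians use CPM + 1. All of these cover counting error only, and a fitted test across mice could not be made. Named were the 12 genes per direction and comparison with the interval bound farthest from 1 on its near side, and apart from these up to 6 genes whose level was under 10% of that in another cell class. Values per cell were taken after thinning to 1000 UMIs. Other cell classes were named from marker genes. The members and the 26 gene lists were chosen with earlier results of these data known. Comparisons that share a library are not independent of each other. The interval and call steps were checked on simulated counts. Promoters came from a RefSeq table of GRCm38.p6. Python 3.11.15, numpy 2.4.6, scipy 1.17.1, pandas 2.3.3 and matplotlib 3.10.9 were used, and 16 alternatives were run, of which the rule without Opalin and the rule on Klk6 alone were chosen after the data were seen.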

Additional observations from a re-analysis of the deposited data

Results flagged for a closer look

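In 10 named genes the LPS ratio went one way in ApoE4 and the other way in ApoE3, past 1.5-fold in each. The difference was not tested, since each group was 1 library. The values are the log2 difference of the LPS ratios, ApoE4 minus ApoE3. In 7 genes ApoE4 was the higher side. Clic6, a chloride channel protein of the choroid plexus, differed by 3.88, with ratios of 2.95 in ApoE4 and 0.196 in ApoE3. Htr2c, the serotonin receptor of choroid plexus and neurons, differed by 3.87 (3.23 in ApoE4 and 0.219 in ApoE3) and Kl, klotho, by 3.64 (2.36 and 0.188). Mgp, a matrix protein of fibroblasts, differed by 3.73 (4.02 and 0.299), Sulf1, a sulfatase, by 3.59 (5.09 and 0.408), Ccnd2, cyclin D2, by 3.11 (2.97 and 0.336) and Slc38a1, an amino acid transporter, by 2.49 (1.79 and 0.315). Each of these 7 stood under 10% of its level in another cell class. The summed choroid plexus RNA in members was 5964 CPM in ApoE4 LPS, 5163 in ApoE4 NaCl, 2295 in ApoE3 LPS and 10827 in ApoE3 NaCl, and its part in these genes was not tested.

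In 3 genes ApoE4 was the lower side. Slc1a1, a glutamate transporter, differed by -2.81 (0.339 in ApoE4 and 2.44 in ApoE3), Tnr, tenascin R of oligodendrocytes and their precursors, by -2.01 (0.454 and 1.83) and Sema5a, an axon guidance protein, by -1.67 (0.663 and 2.12). Slc1a1 stood at 5.74% of its endothelial-like level and Tnr at 3.09% of its precursor-like level, so both are under 10% of another cell class as well. After thinning, the log2 ratio of Slc1a1 in ApoE4 LPS against ApoE3 LPS turned to 1.36, against -1.82 before it.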

How the results depend on the processing

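With 1 library per group no replicate could be left out. No paired analysis was possible because each group was 1 library with no number shared between groups. Gene counts, list medians, named genes and member shares were recomputed under those of the 16 alternatives that apply to each, and shares per cell, the metallothionein ranges and the promoter matches under none. For the values below the cause was not tested unless the setting itself gives it. Of 2679 values of named genes 1998 moved by less than their counting interval, 650 moved further and 31 changed sign, and of 1875 list medians 91 moved and 0 changed sign. Shares and counts follow in the order ApoE4 LPS, ApoE4 NaCl, ApoE3 LPS and ApoE3 NaCl, and counts as higher and lower. Members were 3.23%, 5.79%, 8.06% and 6.02% of barcodes with 0 UMIs of other types, 8.13%, 22.1%, 17.5% and 18.7% with the Klk6 and Serpinb1a barcodes included, 6.42%, 18.3%, 15.2% and 16.2% with Klk6 alone at 0 and 3.67%, 14.0%, 7.56% and 12.3% after thinning. With at least 5 markers they were 4.08% in ApoE4 LPS and 11.2% in ApoE3 LPS, with at least 2000 UMIs 7.26% in ApoE4 LPS and 6.63% in ApoE4 NaCl, and with at most 10% mitochondrial UMIs 6.58% in ApoE4 NaCl. With the Klk6 and Serpinb1a barcodes included, ApoE4 LPS against ApoE3 LPS gave 196 and 53 genes, ApoE4 NaCl against ApoE3 NaCl 58 and 52, and the difference of LPS ratios 258 and 98. Thinned, with fewer UMIs by construction, these gave 1001 and 732, 284 and 323, and 1251 and 832. With Klk6 alone at 0 the LPS pair gave 63 lower, the NaCl pair 40 and 56, and the difference 313 and 115. A mean over each barcode's CPM gave 469 higher in the LPS pair. At a mean of at least 25 CPM, with fewer genes by construction, ApoE4 LPS against ApoE4 NaCl gave 528 and 542, ApoE3 LPS against ApoE3 NaCl 559 lower, the LPS pair 105 and 40, the NaCl pair 32 and 50, and the difference 181 and 99. With every gene of at least 1 UMI the same 5 gave 5273 and 4094, 4303 and 5367, 4737 and 3292, 2973 and 4095, and 6517 and 2719. Without genes under 10% of another class the LPS pair gave 161 higher, the NaCl pair 65 and 99, and the difference 340 higher. Log2 ratios that changed sign follow. In ApoE4 LPS against ApoE4 NaCl, thinning gave 0.14 for Kcnip4 and 0.53 for Rbfox1, and leaving out the 5% of members with the most UMIs 0.42 for Cntn5, 1.70 for Kcnip4 and 0.60 for Meg3. In ApoE3 LPS against ApoE3 NaCl, thinning gave -0.0082 for Atf3 and 0.22 for Folr1, and leaving out the 5% 0.62 for Folr1, 0.0847 for Kcnip4 and 0.57 for Ttr. In ApoE4 LPS against ApoE3 LPS, thinning gave 0.0483 for Cdk14, 0.45 for Galntl6, 2.23 for Rbfox1, 1.36 for Slc1a1 and 0.45 for Spp1, leaving out the 5% 0.41 for Galntl6, and 0 UMIs of other types 0.0756 for Cdk14. In ApoE4 NaCl against ApoE3 NaCl, thinning gave 0.43 for Ccnd2, 1.95 for Clic6, -0.0537 for Hist1h2be, 0.23 for Mettl25, -0.51 for Sema5a and 0.95 for Sulf1, leaving out the 5% 0.79 for Clic6, -1.98 for Cntn5, -2.91 for Dpp10, 0.95 for Htr2c, -1.25 for Kcnip4 and -1.15 for Sgcz, the mean over barcodes -0.24 for Dpp10, and the included barcodes -0.68 for Ccl5.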
